A study of Caenorhabditis elegans with 10 samples.

Results

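The genes described here encode 10 RNA-binding proteins that control maternal mRNAs in the C. elegans oocyte and early embryo: lin-41, oma-1, oma-2, mex-1, mex-3, mex-5, mex-6, pos-1, spn-4 and pie-1. They were taken by gene name from the deposited table and are 10 of its 46536 genes. All 10 passed the filter on low values, at least 1 CPM in at least 5 libraries, which 6833 genes passed. CPM (counts per M, where M stands for 1e6) is the number of reads of a gene scaled to a total of 1 M reads counted in genes. RNA came from hand-dissected germline tumours of worms on the first day of adulthood, grown from synchronised larvae for 48 h at 25 °C. Every worm was of the Bristol strain and carried gld-2(q497) gld-1(q485), mutations of a cytoplasmic poly(A) polymerase and of a translational repressor that together leave a germline of dividing cells. In 5 libraries (ON) the germline Notch receptor gene carried the gain-of-function allele glp-1(ar202). In the other 5 (OFF) it carried the null allele glp-1(q175). All libraries used here carry the gld mutations, so each level below is that of a mutant tumour.

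Maternal mRNAs are made during oogenesis and kept silent until the oocyte matures or the embryo divides, and RNA-binding proteins of this kind decide when and where each is translated. LIN-41 and the OMA proteins act in growing oocytes, MEX-5 and MEX-6 act at the anterior of the zygote, and MEX-1, POS-1 and PIE-1 act in the cells that found the germline. In wild-type worms GLD-1 itself holds back the translation of many oocyte and maternal mRNAs in the early meiotic germline.

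The libraries held 17.5 to 38.5 M reads in genes, of which rRNA genes took 39.0% to 50.8%. Transcripts of glp-1 itself ranged from 69.7 to 101 CPM across OFF libraries and from 206 to 274 CPM across ON libraries. Germ cell markers were abundant in every library, with a sum of 1711 to 2420 CPM over 8 genes, led by pgl-1 and glh-1. Of these markers, 2 fell in ON, the chromosome axis genes him-3 and htp-3. Markers of the sheath and somatic gonad summed, over 8 genes, to 7.78 to 9.68 CPM across OFF and 4.54 to 7.97 CPM across ON libraries, and 2 of the 3 tested, lim-7 (1.15 and 1.77 CPM) and mup-2 (2.98 and 4.45 CPM), fell in ON. Intestine markers, led by vit-6, summed to 1.30 to 11.9 CPM and muscle and pharynx markers, led by unc-54, to 9.41 to 25.0 CPM. The 10 sperm markers summed to 4.64 to 7.77 CPM, with msp-3, msp-10 and msp-55 at 0 in all libraries and spe-9 higher in ON. The epidermis list summed to 19.2 to 36.9 CPM, mostly from lin-26. The neuron list, led by snb-1, summed to 23.4 to 36.1 CPM in 9 libraries and to 56.3 CPM in OFF replicate 2, where unc-13 reached 24.1 CPM, and unc-31 of the neuron list rose in ON.

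Of the 10 genes, 4 were lower and 1 was higher in ON at an adjusted p under 0.05, and 5 had no call (limma on log2(CPM + 1), Benjamini-Hochberg over 6833 genes). Among all tested genes 19.1% were called, 12.4% lower and 6.70% higher. The lower genes were lin-41, oma-2, mex-1 and pie-1, and the higher gene was mex-6. The median log2 difference of all 10, ON minus OFF, was -0.33, against -0.05 over all tested genes. For lin-41 and oma-2, 2 of the 10 genes, no ON level fell within the OFF range, as was so for 14.9% of tested genes. After TMM scaling 4 of the 10 were called lower and 2 higher, where 18.2% and 16.5% of tested genes were. In edgeR on the whole reads 5 were lower and 2 higher, against 18.1% and 16.8% of tested genes, and in DESeq2 also 5 and 2, against 17.7% and 19.4%. Reads per gene and library ran from 154 for pie-1 to 3482 for mex-3, and the spread between libraries (coefficient of variation 12.6% to 24.7%) was larger than the counting error of the mean read number (1.997% to 6.47%) for each gene and group.

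**Figure D1:**
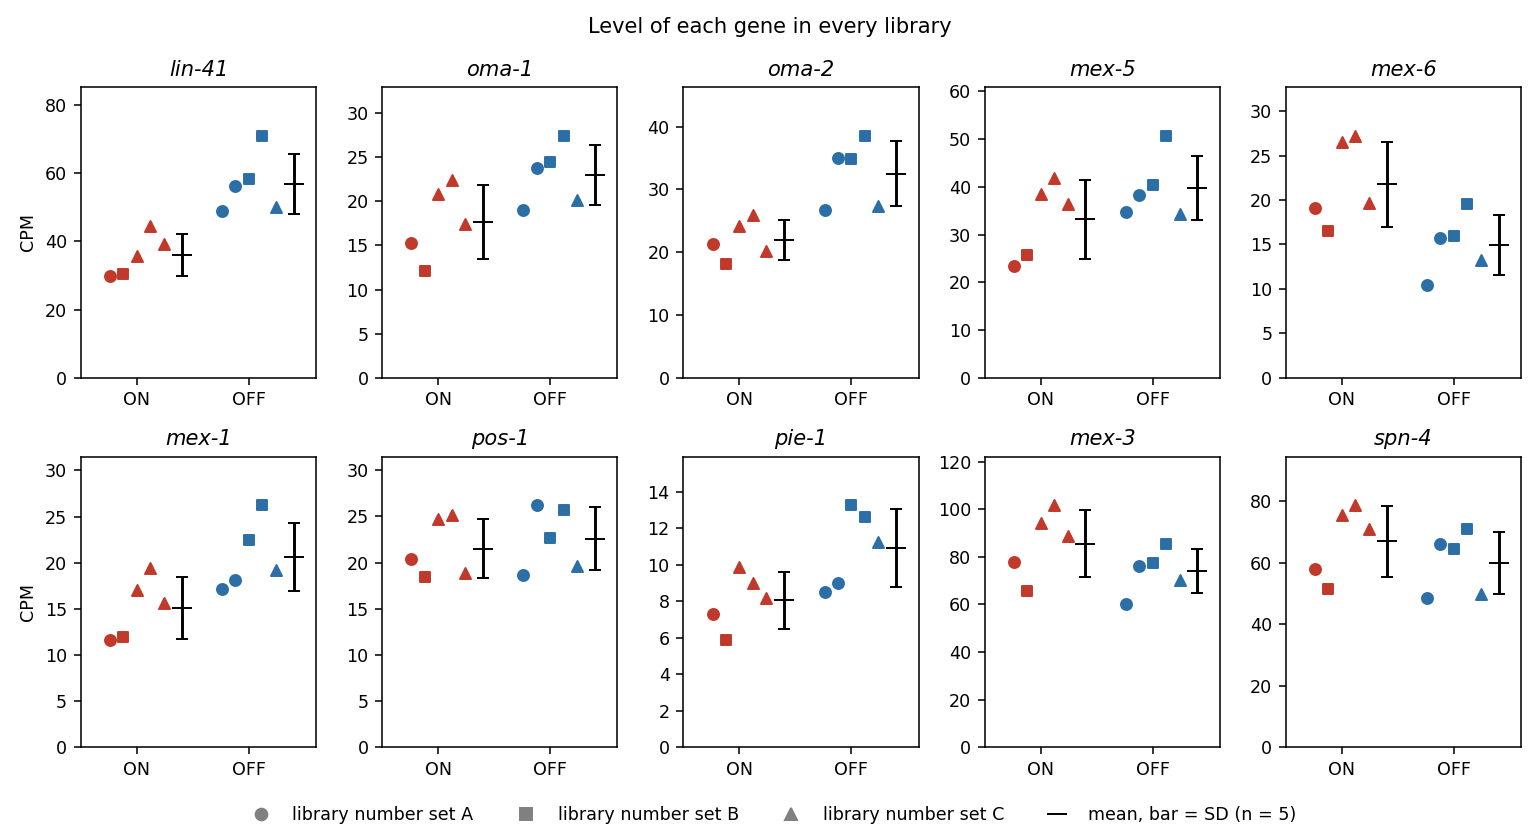
Level in CPM (y axis, starting at 0, scaled per gene) of each of the 10 genes in the 5 ON and 5 OFF libraries, in replicate order from left to right, with the mean and SD of each group beside the points and marker shapes for the 3 sets of library numbers. For lin-41 and oma-2 all ON points lie below all OFF points, and for mex-6 the ON mean of 21.8 CPM lies above the OFF mean of 14.97 CPM.

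The sample numbers in the labels fall into 3 sets, 56 to 58 (set A, with 1 ON and 2 OFF libraries), 85 to 88 (set B, 1 ON and 2 OFF) and 127 to 130 (set C, 3 ON and 1 OFF). The labels do not say what the numbers mark. The ON minus OFF difference of all tested genes had a median of -0.13 in set A, -0.18 in set B and 0.12 in set C, on the log2 scale. The difference of each of the 10 genes is therefore also given within each set, where it rests on 3 or 4 libraries. No test is given for a single gene within a set, since each set has a group of 1 library. The 3 ON libraries of set C resembled each other more than they did other ON libraries (chi-square per degree of freedom of 16.2 to 23.2, against 55.3 to 101), whereas OFF replicate 1 of set A was nearest to OFF replicate 5 of set C (19.6).

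lin-41 encodes a TRIM-NHL protein that lets oocytes grow and holds back their maturation. It lies on chromosome I, 9334800 to 9342496, minus strand, in the Ensembl annotation of the WBcel235 assembly, the source of all coordinates given here. In ON its levels were 29.9, 30.4, 35.8, 44.6 and 39.2 CPM in replicates 1 to 5. In OFF they were 49.1, 56.1, 58.4, 71.0 and 50.2 CPM. Every ON library lay below every OFF library. The log2 difference was -0.65 ± 0.12 (SE; limma adjusted p = 5.7e-04; two-sided exact permutation p = 0.00794, the smallest that 5 against 5 libraries allow). It was -0.79, -1.06 and -0.33 within sets A, B and C, and lin-41 stayed called in all 21 other settings of scaling, filter, test or left-out library that were tried.

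The OMA proteins are a redundant pair of CCCH zinc finger proteins needed for oocyte maturation. oma-2 (chromosome V, 8029439 to 8031214, plus strand) was at 21.4, 18.1, 24.2, 25.99 and 20.2 CPM in ON replicates 1 to 5. Its OFF levels were 26.7, 35.0, 34.8, 38.6 and 27.4 CPM. As for lin-41, no ON library reached an OFF library. The log2 difference of oma-2 was -0.54 ± 0.12 (SE; limma adjusted p = 0.0025; exact permutation p = 0.00794), with -0.50, -0.98 and -0.22 within sets A, B and C, and it too was called in all 21 settings.

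oma-1 (chromosome IV, 8888976 to 8890999, plus strand) was at 15.3, 12.2, 20.9, 22.5 and 17.5 CPM in ON. Its OFF levels were 19.003, 23.8, 24.5, 27.5 and 20.1 CPM. ON replicates 1, 2 and 5 were below all OFF libraries, and ON replicates 3 and 4 lay among them. With a log2 difference of -0.38 ± 0.14 (SE), oma-1 had a limma adjusted p of 0.0594, which missed the threshold. Within sets A, B and C it was -0.45, -1.03 and 0.0035. It was called lower after TMM scaling (-0.34, adjusted p = 0.0335), with totals that leave out rRNA genes, with median-ratio scaling (adjusted p = 0.0386), in edgeR and DESeq2 (adjusted p = 0.0358 and 0.022), with the library set as a term (-0.47, adjusted p = 0.0334), with the replicate number as a block (adjusted p = 0.0079), and on leaving out ON replicate 3, ON replicate 4, OFF replicate 1 or OFF replicate 5 (adjusted p of 0.0162 to 0.0485).

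The sheath markers lim-7 and mup-2 were lower in ON, as were lin-41 and oma-2. Whether these markers varied with lin-41 and oma-2 from library to library was not tested, nor was their part in these differences. In tissue such as this, fewer cells that carry a transcript and less transcript per cell cannot be told apart.

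MEX-5 and MEX-6 are CCCH proteins with overlapping functions that establish the difference between soma and germline at the anterior of the zygote. mex-6 (chromosome II, 9524174 to 9526359, plus strand) was at 19.1, 16.5, 26.5, 27.2 and 19.6 CPM in ON replicates 1 to 5, against 10.5, 15.7, 15.9, 19.5 and 13.3 CPM in OFF. It was higher in ON in 23 of the 25 pairs of an ON and an OFF library, and the exceptions were ON replicates 1 and 2 against OFF replicate 4. mex-6 rose by 0.51 ± 0.15 on the log2 scale (SE; limma adjusted p = 0.0176; exact permutation p = 0.0238, two-sided). The call was lost without OFF replicate 2 (adjusted p = 0.053), with the library set as a term (0.44, adjusted p = 0.0624), with no filter on low values (adjusted p = 0.0736) and over sets A and B alone (0.23, adjusted p = 0.351). Within sets A, B and C the difference was 0.54, -0.09 and 0.82. Set against the median of all tested genes in the same set it was 0.67, 0.10 and 0.70.

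The ON minus OFF difference of mex-5 (chromosome IV, 13353723 to 13356104, plus strand) did not follow that of mex-6. mex-5 was at 23.4, 25.7, 38.6, 41.9 and 36.3 CPM in ON, against 34.8, 38.2, 40.5, 50.7 and 34.3 CPM in OFF. ON replicates 1 and 2 lay below every other library, and the ON libraries of set C lay within the OFF range. The difference of mex-5 was -0.27 with a 95% interval of -0.58 to 0.03 and was not called (limma adjusted p = 0.207). Within sets A, B and C it was -0.62, -0.80 and 0.18, and over sets A and B together -0.71 (adjusted p = 4.3e-04). The term for the difference in set C against sets A and B was 0.88 ± 0.25 (SE; limma adjusted p = 0.0325), past the threshold as for 1.98% of tested genes. That fit takes the spread from all genes of like level rather than from mex-5 itself, and assumes that the lone OFF library of set C varies like the others. No other gene of the 10 passed that test, although the term was above 0 for each of them (0.33 to 0.88, against a median of 0.27 over all tested genes).

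The ratio of mex-6 to mex-5 within a library does not change with the scaling of libraries. It was 0.818, 0.643, 0.687, 0.650 and 0.540 in ON replicates 1 to 5. In OFF it was 0.301, 0.410, 0.393, 0.385 and 0.387. All ON ratios lay above all OFF ratios, with means of 0.668 ± 0.100 and 0.375 ± 0.043 (SD, n = 5 each). On the log2(CPM + 1) scale the difference between mex-6 and mex-5 was 0.79 higher in ON (two-sided exact permutation p = 0.00794, or 0.0238 adjusted over 3 pairs), and within sets A, B and C it was 1.16, 0.71 and 0.64 higher. The log2 of the ratios themselves was 0.83 higher in ON (exact permutation p = 0.00794). How reads that match more than 1 gene were counted is not given in the sources used here, so reads that fit both paralogs could have been divided or dropped.

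**Figure D2:**
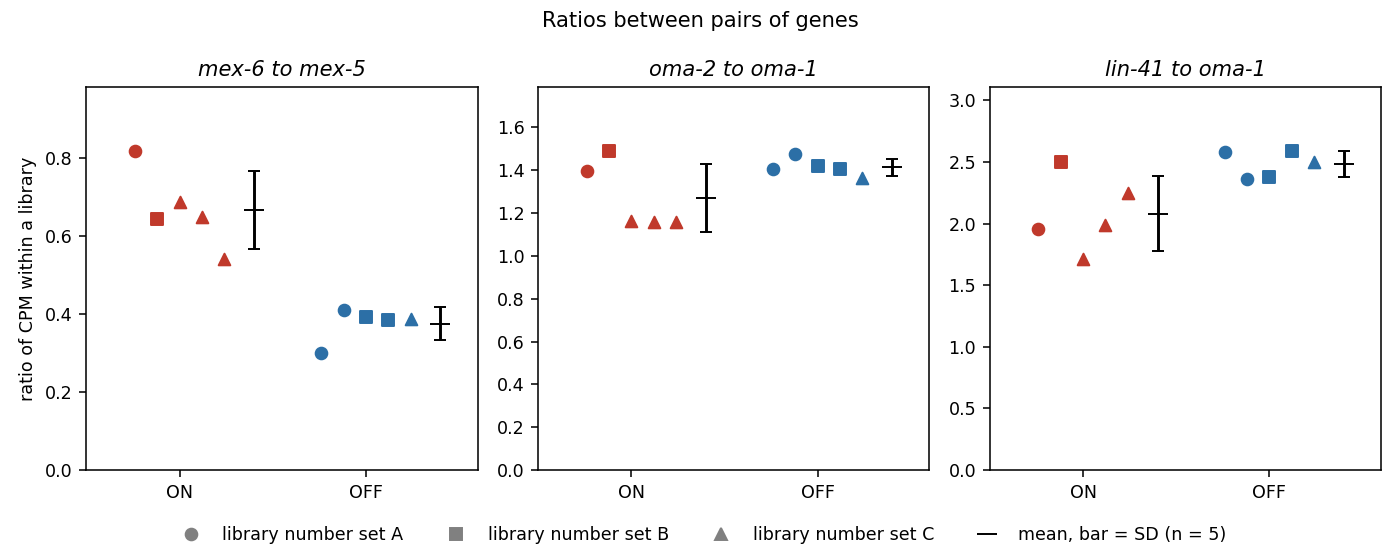
Ratio of CPM within each library (y axes, starting at 0) for mex-6 to mex-5, oma-2 to oma-1 and lin-41 to oma-1, with points for the 5 ON and 5 OFF libraries, the mean and SD of each group, and marker shapes for the sets of library numbers. The ON and OFF points of mex-6 to mex-5 are separate, at 0.540 to 0.818 and 0.301 to 0.410, while the other ratios overlap between groups.

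For oma-2 to oma-1 the OFF ratios averaged 1.41 ± 0.040 and the ON ratios 1.27 ± 0.159 (SD, n = 5 each). The ON minus OFF difference on the log2(CPM + 1) scale, -0.16, was not past the threshold (two-sided exact permutation p = 0.103, also when adjusted over 3 pairs). In ON the ratio was 1.39 and 1.49 in replicates 1 and 2 and 1.16 in each of the 3 libraries of set C, and in OFF it was 1.36 to 1.47. The ratio of lin-41 to oma-1 averaged 2.48 ± 0.107 across OFF and 2.08 ± 0.302 across ON libraries, a difference of -0.27 on the log2(CPM + 1) scale (exact permutation p = 0.0238, adjusted p = 0.0357). Within sets A, B and C it was -0.34, -0.02 and -0.34, and its p rose to 0.0556 without OFF replicate 1, 4 or 5.

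MEX-1, POS-1 and PIE-1 are CCCH proteins of the embryonic germline cells. mex-1 (chromosome II, 11968637 to 11972330, plus strand), needed for the sorting of germline factors into those cells, was at 11.6, 11.9, 17.0, 19.4 and 15.7 CPM in ON. The OFF levels were 17.1, 18.1, 22.4, 26.2 and 19.2 CPM. The groups overlapped through ON replicate 4, which lay above 3 of the OFF libraries. The log2 difference of mex-1 was -0.43 ± 0.14 (SE; limma adjusted p = 0.0304), with -0.56, -0.97 and -0.14 within sets A, B and C. The call was lost on leaving out any 1 of ON replicates 1 and 2 and OFF replicates 2, 3 and 4 (adjusted p of 0.0541 to 0.0843) and with no filter on low values (adjusted p = 0.103).

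pie-1 (chromosome III, 12426893 to 12429195, plus strand) encodes the factor that keeps transcription off in the germline cells of the embryo. It had the lowest mean CPM of the 10 in both groups. Its levels were 7.31, 5.87, 9.88, 9.03 and 8.18 CPM in ON, against 8.49, 8.99, 13.3, 12.6 and 11.3 CPM in OFF. The 2 OFF libraries of set A lay within the ON range, and the other 3 lay above it. pie-1 fell by 0.40 ± 0.13 on the log2 scale (SE; limma adjusted p = 0.0429), with -0.23, -1.02 and -0.29 within the sets. After TMM scaling it was -0.36 (adjusted p = 0.0572) and after median-ratio scaling -0.35 (adjusted p = 0.0637), neither called. With no filter on low values the adjusted p was 0.129, and the call was also lost on leaving out any 1 of ON replicates 1, 2 and 5 and OFF replicates 3, 4 and 5 (adjusted p of 0.0586 to 0.127). The exons of pie-1 share 24 bases with those of snr-6 on the opposite strand, a gene at up to 29.4 CPM. Whether counting used strand is not given.

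pos-1 (chromosome V, 8414086 to 8415254, plus strand), whose protein controls the translation of maternal mRNAs in posterior cells, ranged from 18.4 to 25.1 CPM across ON libraries and from 18.7 to 26.2 CPM across OFF libraries. The ranges almost coincided. The difference of pos-1 was -0.07 with a 95% interval of -0.31 to 0.18 and was not called (limma adjusted p = 0.746). Within sets A, B and C it was -0.12, -0.37 and 0.20, and it was called in 0 of the 21 settings.

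The genes for a KH domain and an RRM domain protein, mex-3 and spn-4, had the highest levels per kb of exon of the list. mex-3 (chromosome I, 127285 to 134270, plus strand) encodes the KH domain protein, which represses pal-1 mRNA in the anterior of the embryo. It was at 77.7, 65.7, 94.0, 102 and 88.6 CPM in ON, against 60.3, 76.3, 77.3, 85.3 and 70.3 CPM in OFF. The ON libraries of set C were above every OFF library, and those of sets A and B lay within the OFF range. The difference of mex-3 was 0.20 with a 95% interval of -0.05 to 0.45 and was not called (limma adjusted p = 0.267). It was called higher after TMM scaling (0.25, adjusted p = 0.0325) and in edgeR and DESeq2 (adjusted p = 0.0298 and 0.0119). It was 0.19, -0.30 and 0.42 within the 3 sets.

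spn-4 (chromosome V, 6783187 to 6784903, minus strand) encodes the RRM domain protein, which acts in spindle orientation and in the translation of maternal mRNAs in the embryo. Its levels were 58.1, 51.6, 75.4, 78.7 and 70.9 CPM in ON, against 48.7, 66.3, 64.4, 70.9 and 49.7 CPM in OFF. The difference of spn-4 was 0.15 with a 95% interval of -0.12 to 0.43 and was not called (limma adjusted p = 0.45). It was 0.03, -0.38 and 0.58 within the 3 sets, and the term for set C against sets A and B did not pass the threshold (limma adjusted p = 0.092).

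**Figure D3:**
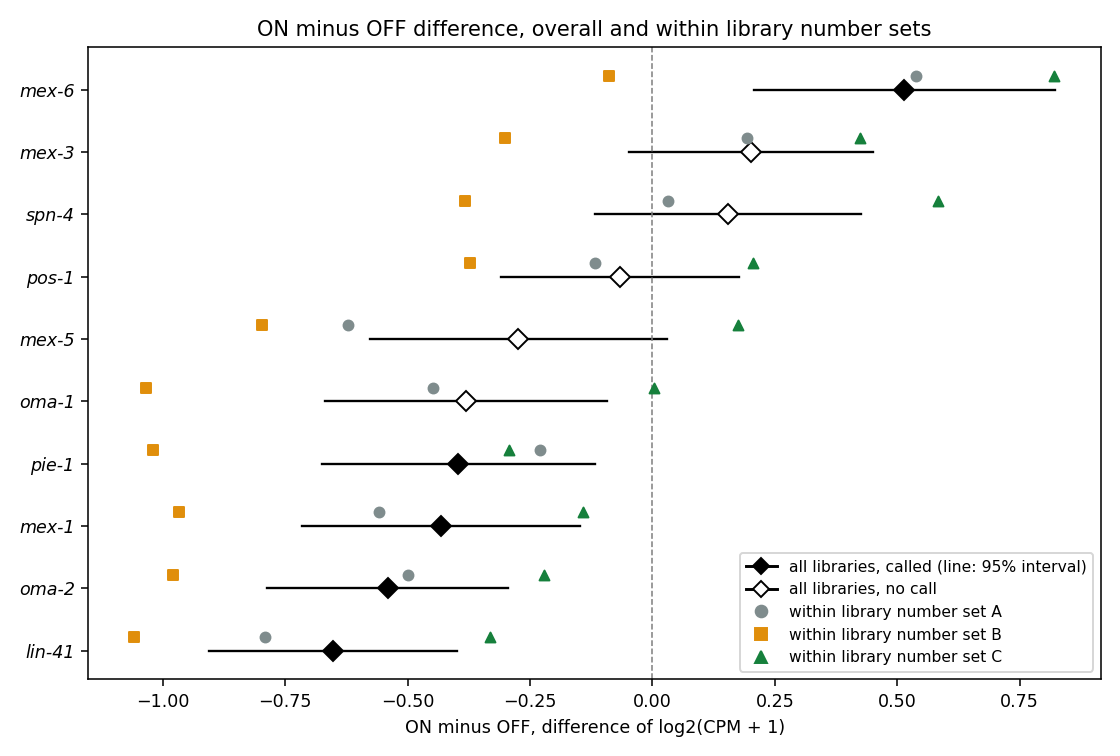
ON minus OFF difference of log2(CPM + 1) (x axis) for each of the 10 genes, as a diamond with its 95% interval (filled where the limma adjusted p is under 0.05) and as 3 points for the differences within sets A, B and C. In set B all 10 differences are below 0, in set A 7 and in set C 4, and lin-41, oma-2, mex-1 and pie-1 are below 0 in each set. The median of all tested genes, not drawn, was -0.13, -0.18 and 0.12 in sets A, B and C.

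The differences of most of the 10 genes shifted between the sets in the same direction, as did the median of all tested genes. All 10 were lower in ON within set B, 7 within set A and 4 within set C. The share of all tested genes lower in each set is not given. The median difference of the 10 was -0.34, -0.88 and 0.09 in sets A, B and C, against -0.13, -0.18 and 0.12 over all tested genes. For 9 of the 10 the difference in set C exceeded those in sets A and B, as it did for 75.1% of all tested genes. The difference kept its sign in all sets for 4 of the 10 genes, those called lower, and for 40.7% of tested genes. When the median of all tested genes was subtracted within each set, lin-41, oma-1, oma-2, mex-1 and pie-1 lay below it in every set, mex-6 lay above it in every set, and mex-3, mex-5, pos-1 and spn-4 lay on both sides. For lin-41 these relative differences were -0.66, -0.87 and -0.45, and for oma-1 -0.32, -0.85 and -0.11. Over sets A and B alone 14.3% of tested genes were called lower and 3.50% higher, and over set C alone 4.54% lower and 18.7% higher, where its single OFF library is assumed to vary like the ON libraries.

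**Figure D4:**
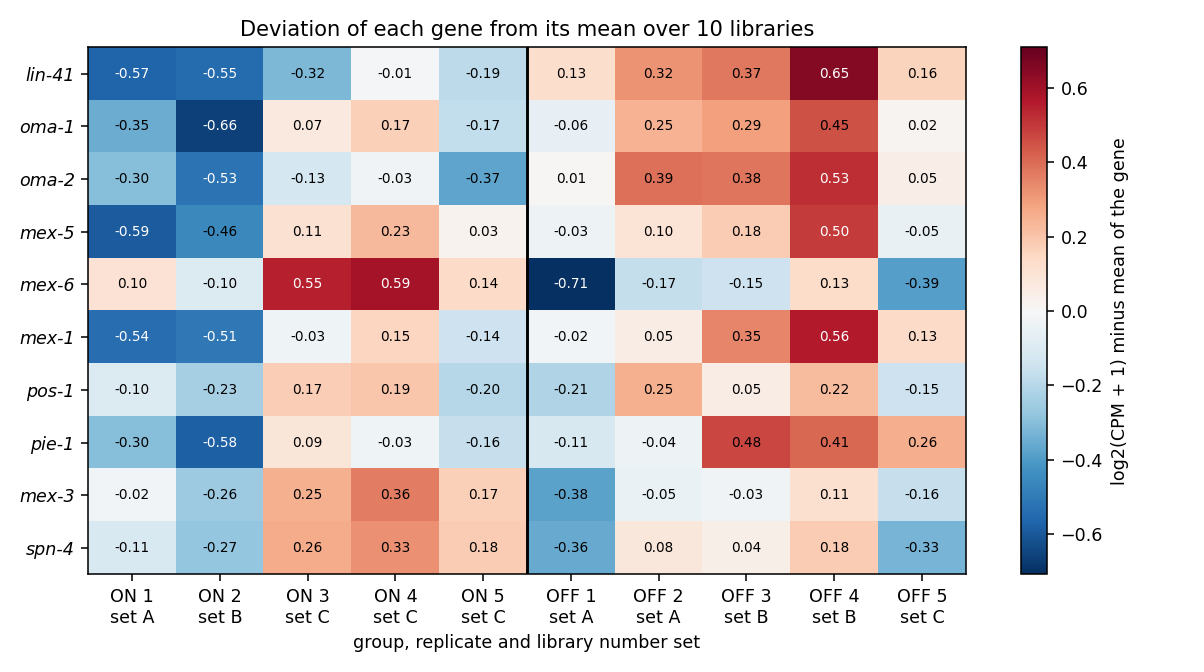
Deviation of log2(CPM + 1) of each of the 10 genes (rows) from its own mean, in each of the 10 libraries (columns, with group, replicate and set of library numbers), in colour and as a printed value. ON replicates 1 and 2 are low for most genes, OFF replicate 4 is above the mean for every gene, and mex-6 departs from the rows of lin-41, oma-1 and oma-2.

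The order of abundance was compared per length, as CPM per kb of annotated exon. spn-4 stood at 44.0 ± 7.63 in ON and 39.4 ± 6.67 in OFF, and mex-3 at 41.9 ± 6.90 and 36.2 ± 4.56 (SD, n = 5). Their means over all libraries exceeded those of 74.5% and 72.3% of tested genes, and spn-4 was above mex-3 in 9 of 10 libraries. Next came pos-1, mex-5 and oma-2, with means over all libraries of 19.7, 18.4 and 17.6 CPM per kb. In OFF oma-2 came first of these, at 21.0 CPM per kb, and in ON last, at 14.2. Their order was not fixed within libraries either, since pos-1 was above mex-5, and mex-5 above oma-2, in 6 of 10 libraries each. oma-2 was above oma-1 in all 10.

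The lower part of the order also differed between the groups. mex-6 lay above oma-1 and lin-41 in all 5 ON libraries and below both in all 5 OFF libraries. Its mean was 11.5 CPM per kb in ON, the sixth of the list, and 7.90 in OFF, the last. For lin-41 it was 7.48 in ON and 11.8 in OFF, and for oma-1 9.80 and 12.8. mex-1 and pie-1, at 8.07 and 7.22 in ON and 10.99 and 9.79 in OFF, were among the lowest in both groups, and the mean of pie-1 exceeded that of 26.9% of tested genes.

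**Figure D5:**
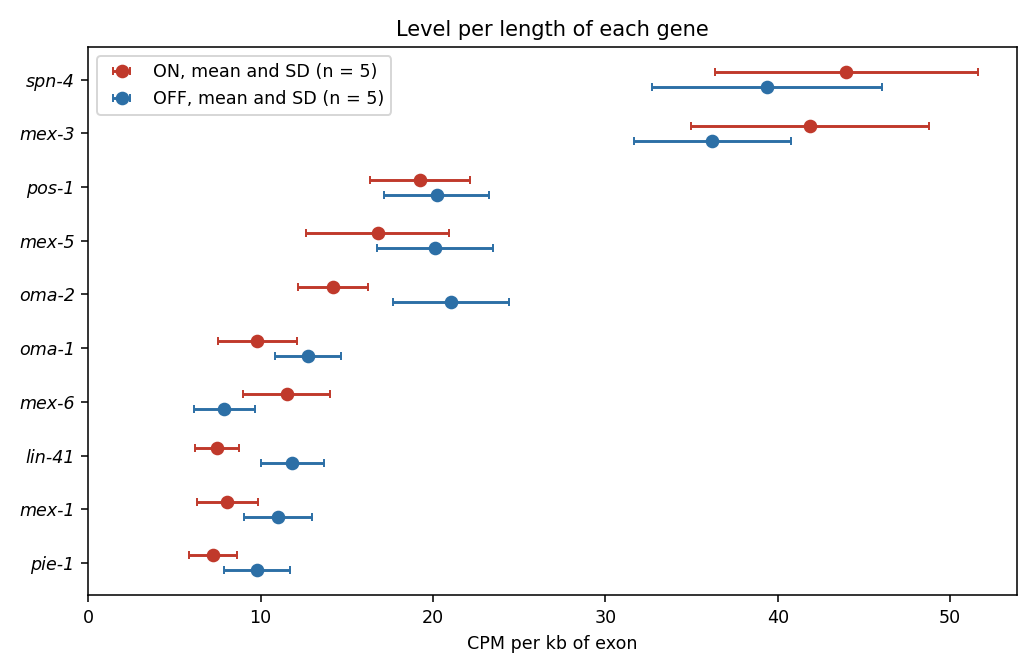
Level of each of the 10 genes in CPM per kb of annotated exon (x axis, starting at 0), as the mean and SD of the 5 ON and the 5 OFF libraries. spn-4 and mex-3 stand apart from the other 8 genes, and mex-6 is the only gene below oma-1 and lin-41 in OFF and above both in ON.

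Most genes that act with these proteins had no call, as was so for most tested genes, of which 19.1% were called. Of 23 genes for partners found with LIN-41 and OMA proteins in ribonucleoprotein complexes, or related translational regulators, 4 fell in ON and 0 rose in limma, where 12.4% of tested genes fell and 6.70% rose. When 1 library was left out, the number called was 2 to 6. It was 2 without ON replicate 5, OFF replicate 2 or OFF replicate 3. At an unadjusted p under 0.05 in limma there were 6 lower and 1 higher, with no share of all tested genes given. After TMM scaling and in edgeR there were 4 and 2, and in DESeq2 5 and 3. TMM, edgeR and DESeq2 called 17.7% to 18.2% of tested genes lower and 16.5% to 19.4% higher. The median log2 difference of the 23 was -0.05, as over all tested genes. The CPEB family gene cpb-3 fell in ON, from 121 ± 12.98 to 73.3 ± 11.1 CPM (SD, n = 5; adjusted p = 8.2e-05 in limma). cgh-1, the DDX6-type RNA helicase, fell from 305 ± 56.6 to 195 ± 40.4 CPM (limma adjusted p = 0.0025), and puf-11 from 53.9 ± 7.82 to 41.8 ± 5.64 CPM. puf-3 was the last of the 4. By set the log2 difference of cgh-1 was -0.75, -1.30 and -0.26, and that of cpb-3 -0.90, -1.07 and -0.42. puf-11 and puf-3 were also lower in ON in each set, by the least in set C (-0.043 and -0.089).

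The median log2 difference of 18 genes for the phosphorylation and breakdown of these proteins at the transition from oocyte to embryo was -0.01. In limma, where 6.70% of tested genes rose and 12.4% fell, 0 of the 18 rose and 1 fell. This was egg-3, whose product anchors the kinase MBK-2 in the oocyte cortex, which fell from 40.5 ± 4.81 to 30.1 ± 1.19 CPM (SD, n = 5; adjusted p = 0.0041 in limma). Its log2 difference was -0.48, -0.46 and -0.24 within the 3 sets. Without OFF replicate 1 the number called in this list was 2. At an unadjusted p under 0.05 in limma there were 3 lower and 0 higher, with no share of all tested genes given. After TMM scaling and in edgeR there were 2 and 1, and in DESeq2 2 and 2. TMM, edgeR and DESeq2 called 17.7% to 18.2% of tested genes lower and 16.5% to 19.4% higher. The gene for MBK-2 itself, which marks OMA proteins for removal, averaged 96.7 ± 16.4 CPM across OFF and 112 ± 19.5 CPM across ON libraries and was not called (limma adjusted p = 0.296).

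The 10 tested genes of zygote polarity were par-1 to par-6 with pkc-3, cdc-42, mbk-2 and plk-1. They gave 0 calls in limma, which called 19.1% of tested genes. At an unadjusted p under 0.05 in limma there were 3 lower and 0 higher, with no share of all tested genes given. After TMM scaling, in edgeR and in DESeq2 2 were called lower and 2 higher each. Over all tested genes these called 17.7% to 18.2% lower and 16.5% to 19.4% higher. Without ON replicate 4 or OFF replicate 1 the number of these polarity genes called in limma was 1. The most abundant, the 14-3-3 gene par-5, averaged 723 ± 54.97 CPM across OFF and 798 ± 44.7 CPM across ON libraries. Of 6 further CCCH genes, ccch-3 alone was tested, with 29.9 ± 4.48 CPM across OFF and 26.04 ± 1.57 CPM across ON libraries and no call (limma adjusted p = 0.233). moe-3, a close relative of the OMA genes, was at 0.599 to 0.982 CPM, and dct-13, ccch-2 and ccch-5 were at 0 in all libraries.

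Of 11 tested maternal mRNAs reported as targets of these proteins, 2 rose and 1 fell in limma, where 6.70% of tested genes rose and 12.4% fell. The rises were in the mutated gene glp-1 and in the replication gene orc-1. The fall was in the cell cycle kinase gene cdk-1, from 139 ± 9.16 to 103 ± 11.2 CPM (SD, n = 5; adjusted p = 0.0029 in limma). Its log2 difference was -0.57, -0.50 and -0.32 within the sets. After TMM scaling 3 rose and 2 fell, where 16.5% of tested genes rose and 18.2% fell. The yolk receptor gene rme-2, a reported target of MEX-3, averaged 83.2 ± 8.58 CPM across OFF and 94.2 ± 12.98 CPM across ON libraries and was not called (limma adjusted p = 0.293).

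The 18 tested genes of oocyte growth and the eggshell had a median log2 difference of -0.27. At an adjusted p under 0.05 in limma 5 were lower and 0 higher, where 12.4% and 6.70% of tested genes were. At an unadjusted p under 0.05 in limma it was 9 and 0. The share of all tested genes at that threshold is not given, so these counts cannot be set against 12.4% and 6.70%. When 1 library was left out, limma called 4 to 10 of the 18. It called 10 without OFF replicate 1 and 8 without ON replicate 4. Over all tested genes it then called 1470 and 1242, against 1305 with all libraries. cpg-1, for an eggshell chondroitin proteoglycan, was lower in ON in every set, with log2 differences of -1.15, -1.70 and -0.78 within sets A, B and C (limma adjusted p = 3.8e-06). perm-2, for a permeability barrier protein, fell from 52.9 ± 6.10 to 35.2 ± 4.75 CPM, and puf-6, for a PUF protein of oocytes, from 9.55 ± 1.11 to 6.43 ± 1.24 CPM (SD, n = 5; limma adjusted p = 6.8e-04 and 0.0035). By set the log2 difference of perm-2 was -0.71, -0.94 and -0.24 and that of puf-6 -0.42, -0.99 and -0.37. The others were egg-3 and puf-7. After TMM scaling and in edgeR 8 were lower and 2 higher, and in DESeq2 9 and 2. TMM, edgeR and DESeq2 called 17.7% to 18.2% of tested genes lower and 16.5% to 19.4% higher. The summed level of the 20 listed genes overlapped between groups, at 1612 to 2283 CPM across OFF and 1471 to 2158 CPM across ON libraries.

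For each gene the tested gene outside the list with the most similar profile over the 10 libraries was found by the root mean square distance of log2(CPM + 1) about its mean. lin-41 lay closest to cki-2, a cyclin-dependent kinase inhibitor gene, at a distance of 0.076, where lin-41 itself varied by 0.383 about its mean. oma-1 lay closest to trap-3 (0.047), oma-2 to Y59A8B.21 (0.055), mex-5 to K03B4.2 (0.063) and mex-6 to C18H9.12 (0.090). For mex-1 the nearest was puf-7 (0.083), and for pie-1 F58D5.13 (0.114). mex-3, pos-1 and spn-4 lay closest to sec-61 (0.031), aptf-3 (0.045) and ztf-7 (0.038). Within the list mex-3 and spn-4 were each other's nearest, at 0.078, as were mex-1 and mex-5, at 0.114, whereas the nearest listed gene to mex-6 was mex-3, at 0.193. Many of the 6823 tested genes outside the list lay nearer than these. There were 70 for mex-3, 68 for spn-4, 15 for mex-1, 26 for mex-5 and 105 for mex-6.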

How the data were processed

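The members and gene lists were chosen with earlier results of these data known. Per the labels' protocols, synchronised larvae were grown for 48 h at 25 °C, and ribosomal RNA was depleted before library preparation. STAR 2.0.4b, Subread's featureCounts 1.4.5, edgeR and limma are named in the submitters' processing notes; the genome build is not given in the sources used here, nor is the use of strand or the treatment of multi-matching reads. The authors deposited 1 table whose signal is CPM. Of its 46998 rows, 462 repeated a gene identifier and were dropped. Dividing by the smallest value above 0 gave whole reads for 100% of values (within 0.01 read), so 1 read is worth 0.0260 to 0.0571 CPM; edgeR on these reads called 2382 genes. Reads are not independent molecules, and counting errors cover counting only.

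Libraries were grouped by their titles. Within a group, 20 pairs of libraries differed by 16.2 to 233 in chi-square per degree of freedom, so none was a repeat of the same reads. This check cannot tell separate samples from separate libraries of the same RNA. The labels call the 5 libraries of a group biological replicates. log2(CPM + 1) of the 6833 genes that reached 1 CPM in 5 or more libraries was tested with limma-trend (limma 3.58.1, R 4.3.3) and no further scaling. A gene was called at a Benjamini-Hochberg adjusted p under 0.05, and the procedure was tested on simulated counts. Fold differences on this scale understate those of genes near 1 CPM. Exact permutation tests used all assignments of the libraries to groups. Named genes were the 10 members, up to 3 called genes per list by size of difference (the most abundant where none was called), the nearest profile of each member, and glp-1, gld-1 and gld-2; egg-3, puf-3, puf-7, rme-2, mbk-2, moe-3, pgl-1, glh-1 and the CCCH genes at 0 were named after their values were seen. In ON and OFF libraries gld-1 averaged 62.6 ± 9.72 and 49.7 ± 5.38 CPM, and gld-2 50.4 ± 7.64 and 53.7 ± 10.3 CPM (SD, n = 5; limma adjusted p = 0.0502 and 0.714). Alternatives were pseudocounts of 0.25 and 5 CPM, no filter or one at 5 CPM, TMM (edgeR 4.0.16), median-ratio and rRNA-free scaling, the replicate number or library set as a term, edgeR, DESeq2 1.42.0 and leaving out each library. Fits within library sets, the term for set C and ratios without a pseudocount were added after seeing the data. Exon lengths and positions were read from Ensembl's WBcel235 annotation, which may not be the authors' build (46363 genes matched by identifier).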

Additional observations from a re-analysis of the deposited data

Results flagged for a closer look

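The ratio of mex-6 to mex-5 in OFF replicate 1 was 0.301, far from the other 4 OFF libraries at 0.385 to 0.410. In that library mex-6 was at 10.5 CPM, its lowest value, and mex-5 at 34.8 CPM. Chance flags about 1 in 20 such groups, and 26 were examined. The ON minus OFF log2 difference of mex-5 was 0.88 higher in library set C than in sets A and B, by a limma term chosen after seeing the data (adjusted p = 0.0325), with 1 OFF library in set C.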

How the results depend on the processing

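lin-41 and oma-2 were called under all 21 settings other than the fits within library sets, mex-6 under 18, mex-1 under 15, pie-1 under 12, oma-1 under 11, mex-3 under 5, and mex-5, pos-1 and spn-4 under 0. The number of the 10 genes called was 2 without a filter and 3 to 6 when a library was left out. Over sets A and B alone the genes called lower differed by -0.92 (lin-41), -0.74 (oma-2), -0.76 (mex-1) and -0.62 (pie-1). Over set C alone these genes differed by less, lin-41 by -0.33, oma-2 by -0.22, mex-1 by -0.14 and pie-1 by -0.29. mex-6 differed there by 0.82, spn-4 by 0.58 and mex-3 by 0.42. Fits over set C alone assume that its single OFF library varies like the ON libraries. Signs of the 10 genes reversed only in fits within library sets. Over set C, oma-1 was 0.0035, mex-5 0.18 and pos-1 0.20, and over sets A and B mex-3 was -0.054 and spn-4 -0.18. The cause was not tested. All genes called numbered 1305, against 844 with a filter at 5 CPM (fewer genes tested), 2376 with TMM, 2372 with median-ratio and 2057 with rRNA-free scaling, 2382 in edgeR and 2534 in DESeq2, and 1046 to 1470 when a library was left out. Without scaling 458 were higher and 847 lower, after TMM 1129 and 1247, and over set C alone 1275 and 310. Over the gene lists 12 genes were called, against 24, 23 and 22 with these scalings, 19 with the replicate block, 24 in edgeR, 27 in DESeq2, 22 over sets A and B, 26 over set C and 8 to 18 when a library was left out. The log2 ratio of mex-6 to mex-5 differed by 0.79 with the replicate block, where p cannot go below 0.0625 (exact sign-flip), by 1.16 in set A, and by 0.71 to 0.86 when a library was left out. For lin-41 to oma-1 the values were -0.27 with the block (exact p = 0.125), -0.023 in set B and -0.34 to -0.21 when a library was left out. For oma-2 to oma-1 they were 0.055 in set B and -0.21 to -0.13. The replicate numbers were not taken to pair the samples: the deviations of same-numbered libraries correlated above 0.1 across genes in 4 of 5 pairs (0.24, -0.024, 0.23, 0.46 and 0.17), and 6 of 10 libraries correlated best with their own number. With the replicate block 1545 genes were called, and oma-1 was also among them (adjusted p = 0.0079). The gene with the lowest mean CPM, pie-1, rests on 154 to 370 reads per library.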
